A study of Mus musculus with 8 samples.

Results

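Mitosis and G2/M genes are the genes whose products carry a cell from the end of DNA replication through chromosome segregation and division. The 50 genes listed here were sorted by role into 7 functional groups, and every probe set annotated with a single one of their symbols was taken. That gave 85 probe sets for 47 genes, out of 22626 probe sets tested in all. Ccnb1, Cdca8 and Espl1 had no probe set with a single symbol and were not analysed here. No filter on dim values was possible, so all 85 probe sets entered every comparison. Of the 47 genes, 23 had more than 1 probe set and 24 had 1.

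Newborn mice of the inbred FVB strain supplied whole skin, and 3 animals of the same genotype were pooled for each array. The 4 genotypes had 2 arrays each: control, pRb-/-;p53+/+ (pRb loss), pRb+/+;p53-/- (p53 loss) and pRb-/-;p53-/- (both losses). The series describes the losses as somatic and located in stratified epithelia, so the dermis, fat, muscle and blood cells of each skin sample are not described as having lost either gene. The genotype of the control animals beyond that name, and the promoter that drove the deletions, are not stated in what was used here. The labels do not say that both pools of a genotype were independent. The p-values below therefore reflect only array-to-array spread, and part of that spread may be technical.

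Entry into mitosis is driven by the kinase Cdk1 bound to A- and B-type cyclins. Genes of this programme are silent in resting cells and peak in G2 and M phase. They are switched on by B-Myb with the MuvB complex and by Foxm1, and held down by the DREAM complex. DREAM contains pocket proteins related to pRb, and the complex sits on a promoter element called the cell cycle genes homology region (CHR). p53 lowers many of the same genes, largely through its target p21 and DREAM. In skin, dividing cells lie mainly in the basal layer of the epidermis and in the hair matrix.

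No member was called in any comparison below. By unadjusted p-value, Pttg1 and Plk1 ranked behind another member that is not shown here. Promoters of 4 of the members with the smallest unadjusted p-values are shown as examples. They come from RefSeq (GRCm38.p6) and run from 250 bases before to 50 bases after the transcript start that the table lists, on the strand of the gene. Capitals mark CCAAT and the CHR letters TTTGAA or TTCGAA, searched on both strands, so that ATTGG and TTCAAA count too. The regions are chr6:125191537-125191836 (minus strand) for Ncapd2, chr7:135716330-135716629 (minus strand) for Mki67, chr7:122159185-122159484 (plus strand) for Plk1 and chr11:43425932-43426231 (minus strand) for Pttg1. The listed starts of Ncapd2, Mki67 and Pttg1 lie inside their genes. Ncapd2 spans 125168007 to 125192100 on chromosome 6, Mki67 135689784 to 135716450 on chromosome 7 and Pttg1 43420244 to 43427463 on chromosome 11.
Ncapd2: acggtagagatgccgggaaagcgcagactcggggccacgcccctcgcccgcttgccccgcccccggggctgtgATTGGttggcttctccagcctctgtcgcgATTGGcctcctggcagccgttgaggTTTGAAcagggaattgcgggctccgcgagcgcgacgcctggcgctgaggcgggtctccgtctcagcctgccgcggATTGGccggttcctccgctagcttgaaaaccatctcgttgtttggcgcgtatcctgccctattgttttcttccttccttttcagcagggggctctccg
Mki67: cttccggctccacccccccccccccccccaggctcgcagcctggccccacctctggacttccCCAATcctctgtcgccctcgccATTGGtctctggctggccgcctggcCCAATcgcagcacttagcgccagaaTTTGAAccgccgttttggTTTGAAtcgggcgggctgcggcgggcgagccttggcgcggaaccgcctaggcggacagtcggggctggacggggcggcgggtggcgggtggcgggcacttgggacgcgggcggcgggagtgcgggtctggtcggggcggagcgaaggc
Plk1: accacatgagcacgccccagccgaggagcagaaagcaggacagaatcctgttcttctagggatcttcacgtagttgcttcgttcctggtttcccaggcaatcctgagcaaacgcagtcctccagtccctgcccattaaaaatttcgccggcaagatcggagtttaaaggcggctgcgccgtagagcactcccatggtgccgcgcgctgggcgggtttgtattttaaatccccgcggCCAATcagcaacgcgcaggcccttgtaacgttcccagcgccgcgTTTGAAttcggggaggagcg
Pttg1: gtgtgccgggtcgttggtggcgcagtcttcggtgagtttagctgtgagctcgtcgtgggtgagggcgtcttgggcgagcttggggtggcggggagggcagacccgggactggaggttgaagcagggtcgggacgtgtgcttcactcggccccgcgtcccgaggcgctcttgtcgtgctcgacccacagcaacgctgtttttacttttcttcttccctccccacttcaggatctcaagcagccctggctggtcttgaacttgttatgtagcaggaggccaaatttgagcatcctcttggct
Mki67 has a pair of CHR letters, at −116 and −98 from the listed start, with CCAAT letters at −188, −166 and −141. Ncapd2 has CHR letters at −123 and Plk1 at 31. These letters are not in the Pttg1 window. Of the 45 promoter entries that matched 42 members, 34 (75.6%) held CHR letters, against 17.6% of the 21262 entries of protein-coding genes. CCAAT was in 35 of them (77.8%), against 38.2%, and both were in 31 (68.9%), against 7.11%. A match describes letters and is not evidence of a bound site.

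Each probe set's deposited values had been centred on 0 and scaled to an SD of 1 across the 8 arrays. Levels and fold changes cannot be given from such scores, and every difference below is in units of the probe set's own SD. A score has a fixed sum over the arrays, so a group that is high makes the others lower. The number of arrays limits the precision. Rb1, measured by 1 probe set, scored 1.20 and 0.80 in control, −0.71 and 0.44 with pRb loss, 0.50 and 0.22 with p53 loss and −0.55 and −1.90 with both. All mutant arrays scored below both control arrays, those with p53 loss alone included. The ranges of the pRb loss and p53 loss arrays overlap. Whether this probe set reads the deleted exons is unknown here, so it does not check the labels. The p53 gene was not analysed here. The 64 hybridization and reference control probe sets had a lower median score in the control arrays (−0.69 and −0.51) than in the other 6 (−0.09 to 0.45). Their median difference from control was 0.87, 0.87 and 0.71 with pRb loss, p53 loss and both. This runs with every comparison against control and with the interaction, and its part in the results was not tested.

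The median score of the 85 member probe sets was −0.28 and −0.19 in control, 0.42 and 0.07 with pRb loss, 0.54 and 0.31 with p53 loss and −0.41 and −0.43 with both losses. The members' median was therefore higher in each of the 4 arrays with a single loss than in the other 4. Not every member followed it: 25 of the 85 had a negative difference from control with pRb loss (29.4%, against 47.7% of all probe sets). With p53 loss 24 did (28.2%, against 54.4%). Over all 22626 probe sets the array medians ran from −0.16 to 0.23. Among the members, p53 loss was the genotype with the highest mean score in 32 of 85 (37.6%, against 20.5% of all probe sets), and both losses was the lowest in 37 (43.5%, against 28.0%). Both arrays with both losses lay below the other 6 arrays in 17 member probe sets of 16 genes, or 20.0%, against 10.2% of all, and above them in 1, a probe set of Hmmr (1.18%, against 7.85%). Both p53 loss arrays lay above the other 6 in 10 (11.8%, against 6.01%) and below them in 1, of Top2a (1.18%, against 7.8%). Both pRb loss arrays lay above in 9 (10.6%, against 7.65%) and below in 4 (4.71%, against 5.45%). Control lay below the other 6 in 10 (11.8%, against 6.94%) and above them in 0, against 5.71% of all. In these bulk samples, fewer dividing cells and less RNA per dividing cell cannot be told apart.

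**Figure D1:**
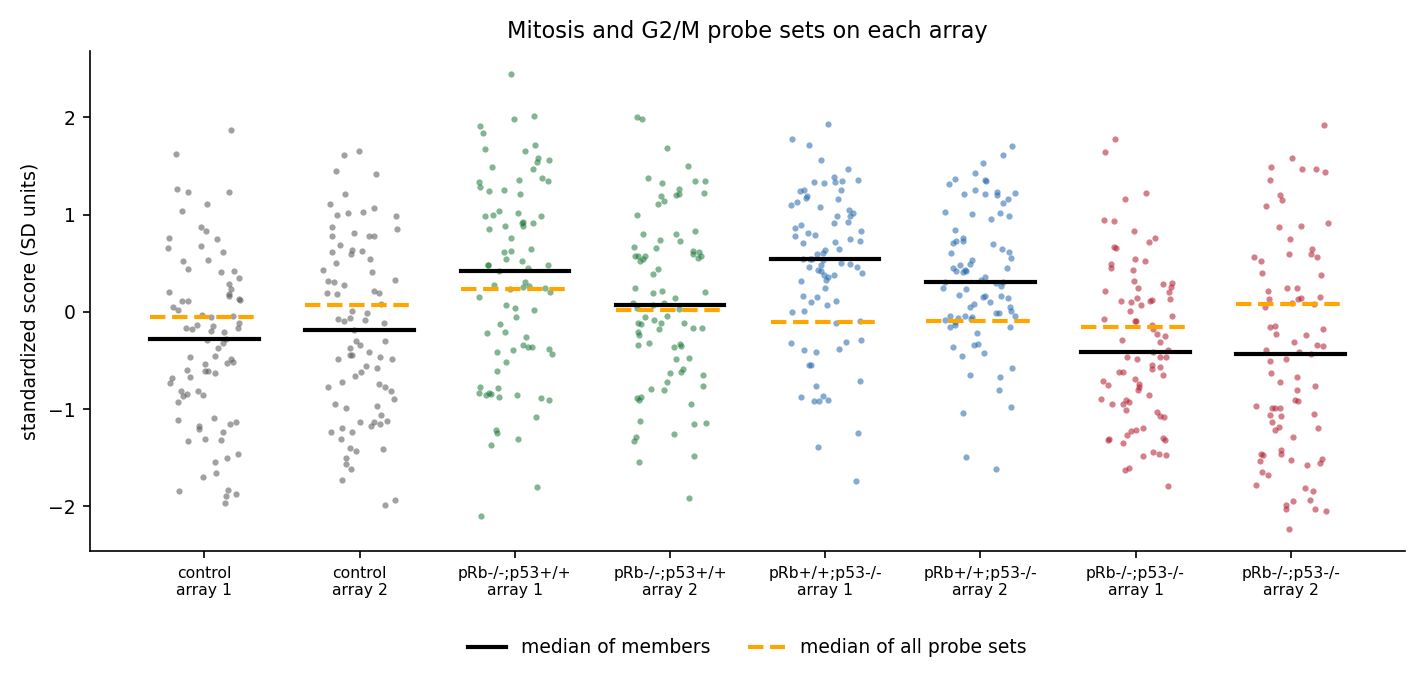
Standardized score in SD units (y axis) of each of the 85 mitosis and G2/M probe sets (points) on the 8 arrays (x axis, 4 genotypes with 2 arrays each). Black bars are the members' medians and dashed bars the medians of all 22626 probe sets; the members' medians are 0.07 to 0.54 in the 4 arrays with a single loss and −0.43 to −0.19 in the others.

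pRb loss alone was set against control to ask what losing pRb does to the mitotic programme. Members tended to score higher: 60 of the 85 probe sets had a positive difference (70.6%, against 52.3% of all probe sets). Their median was 0.52, where the median of all probe sets was 0.07. At an unadjusted p under 0.05, 9 were higher (10.6%, against 6.38% of all probe sets) and 3 were lower (3.53%, against 4.22%). The higher ones included the spindle motor Kif11 (1.82 ± 0.32 SE), the passenger protein Incenp (2.15 ± 0.40) and the Cdk1-activating phosphatase Cdc25c (2.34 ± 0.56). Kif11 and Incenp were counted by 1 of 3 probe sets each. Their other probe sets differed by 1.23 and 0.28 (Kif11) and by 0.32 and −0.02 (Incenp). The lower ones were the checkpoint kinase Bub1b (−2.10 ± 0.57), 1 of 2 probe sets of the kinetochore protein Spc25 (−1.86 ± 0.59) and 1 of 3 of securin, Pttg1 (−1.15 ± 0.27). No member, and no probe set on the array (0%), passed an adjusted p of 0.05 in the limma fit with unmoderated variances, and the smallest adjusted p of a member was 0.26. Without overlap of the pRb loss and control arrays, 31 of the 85 members were higher (against 22.6% of all probe sets) and 8 were lower (against 18.4%). Without control array 1 the count of higher members was 5. The count of lower members was 1 without control array 2, pRb loss array 1 or either array with both losses.

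p53 loss alone was set against control in the same way. A total of 61 member probe sets had a positive difference (71.8%, against 45.6% of all probe sets), with a median of 0.39 where that of all probe sets was −0.16. At an unadjusted p under 0.05, 14 were higher (16.5%, against 7.32% of all) and 0 lower (against 7.24%). Kinesins and cytokinesis genes gave 8 of the 14, or 29.6% of that group's 27 probe sets, with Racgap1 and Kif2c counted by 2 probe sets each. The mitotic kinesin Kif20a differed by 2.46 ± 0.28 (adjusted p = 0.095), the centralspindlin subunit Racgap1 by 2.44 ± 0.32 (adjusted p = 0.11) and the condensin subunit Ncapd2 by 2.12 ± 0.22 (adjusted p = 0.089). None of the members was called after adjustment, where 0.0354% of all probe sets were called higher and 0.084% lower. Without overlap of the groups, 32 of the 85 members were higher (against 23.8% of all probe sets) and 6 were lower (against 28.9%). The count of higher members was 8 without either p53 loss array, and 1 member was lower without control array 1. The median was 0.64 without control array 2 and 0.65 without p53 loss array 1.

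Against control, skin with both losses had no common direction over the members. Of the 85 probe sets, 46 had a positive difference (54.1%, against 49.8% of all), and the median was 0.07 (−0.01 over all probe sets). At an unadjusted p under 0.05, 7 were higher (8.24%, against 8.72% of all) and 14 lower (16.5%, against 9.93%). That excess of lower members depended on the scaling. Quantile normalization gave 10 higher and 11 lower, and array medians set to 0 gave 9 higher and 11 lower. The proliferation antigen Mki67 differed by −2.14 ± 0.25 (adjusted p = 0.065), Incenp by −2.00 ± 0.29 (adjusted p = 0.090) and the condensin core subunit Smc4 by −2.05 ± 0.36 (adjusted p = 0.11), while Kif20a differed by 1.69 ± 0.28 and Kif11 by 1.91 ± 0.32 (adjusted p = 0.10 each). Incenp, Smc4 and Kif11 had 3 probe sets each, and the Incenp value is from a different one than under pRb loss. The others differed by 0.52 and −1.36 (Incenp), −0.12 and −1.42 (Smc4) and 0.45 and −0.81 (Kif11), so these genes were not settled in size or direction. No member was called, where 0.323% of all probe sets were called higher and 0.526% lower. Without overlap of the groups, 17 of the 85 members were higher (against 25.0% of all probe sets) and 27 were lower (against 26.2%). The count of lower members was 9 without either control array, 8 without either pRb loss array and 6 without array 2 of both losses. The median was −0.15 without control array 1 and −0.19 without array 1 of both losses.

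Adding p53 loss to pRb loss was tested by setting both losses against pRb loss alone. Members tended to score lower: 60 of 85 differences were negative (70.6%, against 53.5% of all probe sets), and the median was −0.84 (−0.15 over all). At an unadjusted p under 0.05 there were 17 lower (20.0%, against 10.9% of all) and 4 higher (4.71%, against 7.73%). The leading ones were Mki67 (−2.34 ± 0.25, adjusted p = 0.072), the kinase Plk1 (−2.53 ± 0.31, adjusted p = 0.085) and, in the other direction, Pttg1 by 1 probe set (2.26 ± 0.27, adjusted p = 0.082). No member passed, where 0.15% of all probe sets were called higher and 0.256% lower. Without overlap of the groups, 13 of the 85 members were higher (against 22.0% of all probe sets) and 32 were lower (against 28.1%). The count of lower members was 9 without pRb loss array 1 and 11 without array 2 of both losses. The count of higher members was 2 without either pRb loss array and 1 without array 1 of both losses.

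Adding pRb loss to p53 loss was tested against p53 loss alone. The members again tended to be lower, with 67 of 85 differences negative (78.8%, against 49.0% of all probe sets) and a median of −0.87 (0.04 over all). At an unadjusted p under 0.05, 20 were lower (23.5%, against 5.92% of all) and 0 higher (against 5.98%). Ncapd2 differed by −2.35 ± 0.22 (adjusted p = 0.12), Incenp by −1.90 ± 0.29 (adjusted p = 0.19) and Mki67 by −1.54 ± 0.25 (adjusted p = 0.20). No member passed, where 0.0133% of all probe sets were called higher and 0.0221% lower. Without overlap of the groups, 5 of the 85 members were higher (against 24.3% of all probe sets) and 46 were lower (against 25.2%). The count of lower members was 8 without p53 loss array 1, 12 without p53 loss array 2 and 10 without array 2 of both losses. These comparisons share arrays with those above, so their values are given side by side and not as separate evidence.

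The interaction asks whether losing both differs from the sum of the single losses: the mean with both losses, minus the means with pRb loss and with p53 loss, plus the control mean. It was negative in 71 of the 85 member probe sets (83.5%, against 50.9% of all), with a median of −1.45 where that of all probe sets was −0.03. At an unadjusted p under 0.05, 22 members were lower than the sum (25.9%, against 5.98% of all) and 1 was higher (1.18%, against 4.47%). The largest in size was Incenp (−3.46 ± 0.57, adjusted p = 0.28), and the smallest p belonged to Ncapd2 (−2.75 ± 0.32, adjusted p = 0.21). No member and no other probe set passed the adjusted threshold (0% in each direction), so the interaction of no single gene was called. The median lay between −1.71 and −1.28 with any 1 array left out. The count of lower members was 14 without p53 loss array 1, and the count of higher members was 0 without control array 2, pRb loss array 1 or either p53 loss array.

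**Figure D2:**
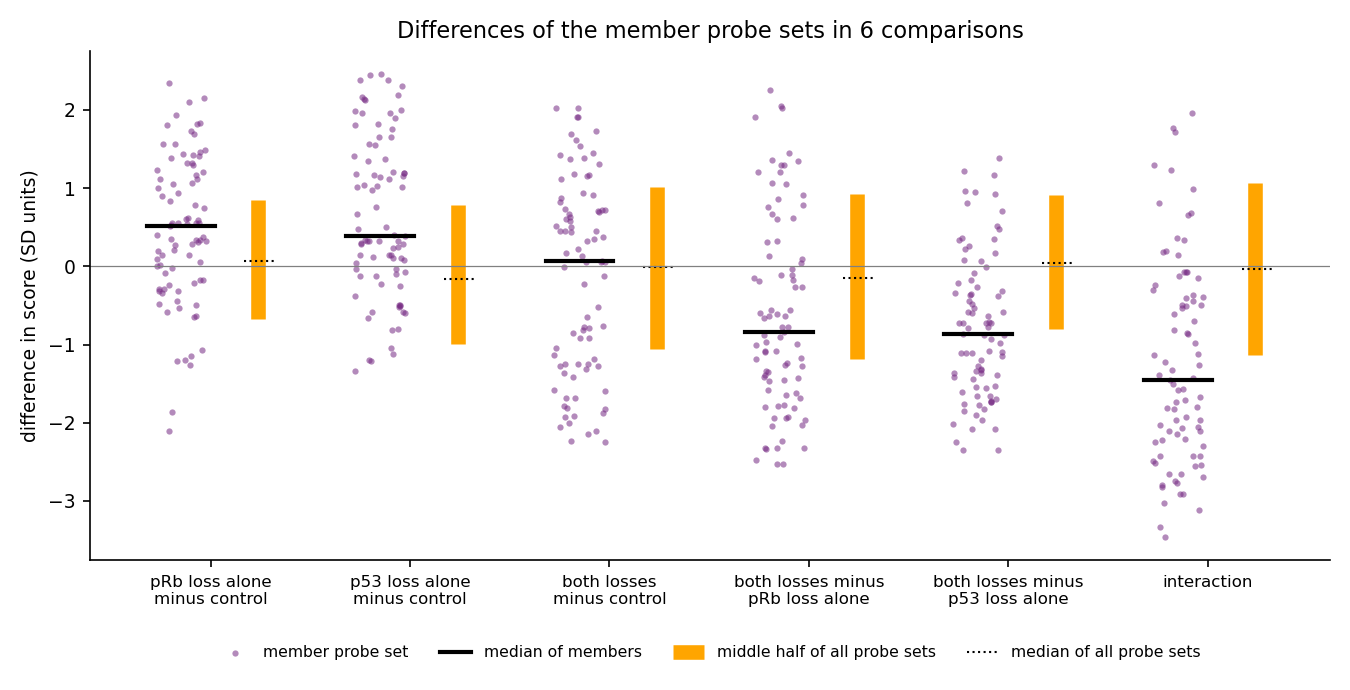
Difference in score in SD units (y axis) of the 85 member probe sets (points) in the 6 comparisons (x axis), with the members' median as a black bar beside the interquartile range (orange) and median (dotted) of all probe sets. The members' median is 0.52 and 0.39 for the single losses, 0.07 for both losses against control, and −1.45 for the interaction.

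Cdk1 and its activators were measured by 12 probe sets of 7 genes. Their interaction was negative in 9 of 12 (against 50.9% of all probe sets), with a median of −1.30. Among the 12, 4 were lower than the sum at an unadjusted p under 0.05 (against 5.98% of all). Ccna2, the cyclin of S and G2 phase, scored −0.17 and −0.11 in control, 0.62 and 0.67 with pRb loss, 1.33 and 0.41 with p53 loss and −0.95 and −1.81 with both losses by 1 probe set. Both arrays with both losses lay below all others there. By its other probe set the arrays with both losses (−0.55 and −0.51) were above control (−1.11 and −0.95), while the interaction was close, at −3.12 ± 0.96 against −3.03 ± 0.63 (adjusted p = 0.42 and 0.33). Ccnb2, a B-type cyclin, scored −1.46 and −0.44 in control, 0.54 and −0.32 with pRb loss, 1.17 and 1.53 with p53 loss and −0.29 and −0.72 with both. Its p53 loss arrays were above the other 6, and it differed from control by 2.30 ± 0.51 there (adjusted p = 0.20).

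Cdk1 itself, the kinase of mitotic entry, had its lowest scores with both losses (−1.01 and −1.18), and 1 pRb loss array stood far above the other, at 2.01 against −0.12. Cdc25b and Cdc25c, phosphatases that activate Cdk1, did not follow each other. Cdc25b was lowest with both losses (−1.08 and −1.78) and Cdc25c was highest with pRb loss (1.98 and 0.66). Cks2, a small subunit that binds Cdk1, differed from control by 1.99 and 1.81 with p53 loss and by 1.61 and 2.03 with both losses, by its 2 probe sets. Foxm1, a transcription factor of the G2/M programme, had 4 probe sets whose differences from control ran from −1.21 to 1.12 over the 3 mutant genotypes, and 3 of the 4 had a positive interaction.

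Mitotic kinases and chromosomal passengers showed the lowest scores with both losses. The median of their 12 probe sets was −0.16 and 0.56 in control, 0.27 and 0.54 with pRb loss, 0.62 and 0.40 with p53 loss and −1.21 and −1.02 with both. Of the 12, 11 had a negative interaction (91.7%, against 50.9% of all probe sets), with a median of −2.02. At an unadjusted p under 0.05, 5 were lower than the sum (41.7%, against 5.98% of all). Plk1, a kinase needed for spindle assembly and mitotic exit, scored −0.18 and 0.54 in control, 1.00 and 1.22 with pRb loss, 0.33 and −0.06 with p53 loss and −1.31 and −1.53 with both. Its pRb loss arrays were the highest and its arrays with both losses the lowest, and the interaction was −2.49 ± 0.44 (adjusted p = 0.30).

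Incenp, the scaffold of the chromosomal passenger complex, had 3 probe sets. By the first it scored 0.11 and 0.78 in control, 0.98 and 0.55 with pRb loss, 0.25 and 0.45 with p53 loss and −1.61 and −1.51 with both. By the second it scored −0.84 and −1.41 in control, 0.92 and 1.14 with pRb loss, 1.10 and 0.30 with p53 loss and −0.86 and −0.35 with both. Both put the arrays with both losses below those with a single loss, but only the first put them below control. The interaction was −2.22, −3.46 and −1.32 over the 3 probe sets. Survivin, Birc5, a passenger subunit, was lowest with both losses (−1.19 and −1.52; −2.08 ± 0.64 against p53 loss, adjusted p = 0.37). The passenger kinase Aurkb had an interaction of −2.43 and −1.12 by its 2 probe sets, without an unadjusted p under 0.05.

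The spindle assembly factor Tpx2 differed from p53 loss by −2.35 ± 0.45 (adjusted p = 0.24) by 1 probe set in skin with both losses and by −1.08 by the other. Melk, a kinase of proliferating cells, scored highest with p53 loss (1.39 and 1.34), and its interaction was −2.55 ± 0.91 (adjusted p = 0.47). Aurka, the centrosomal kinase that Tpx2 activates, was the 1 member of the group with a positive interaction, at 0.18, and its control arrays lay as far apart as −1.89 and 0.59. The centrosomal kinase Nek2 had no difference larger than 0.99 in size in any comparison.

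**Figure D3:**
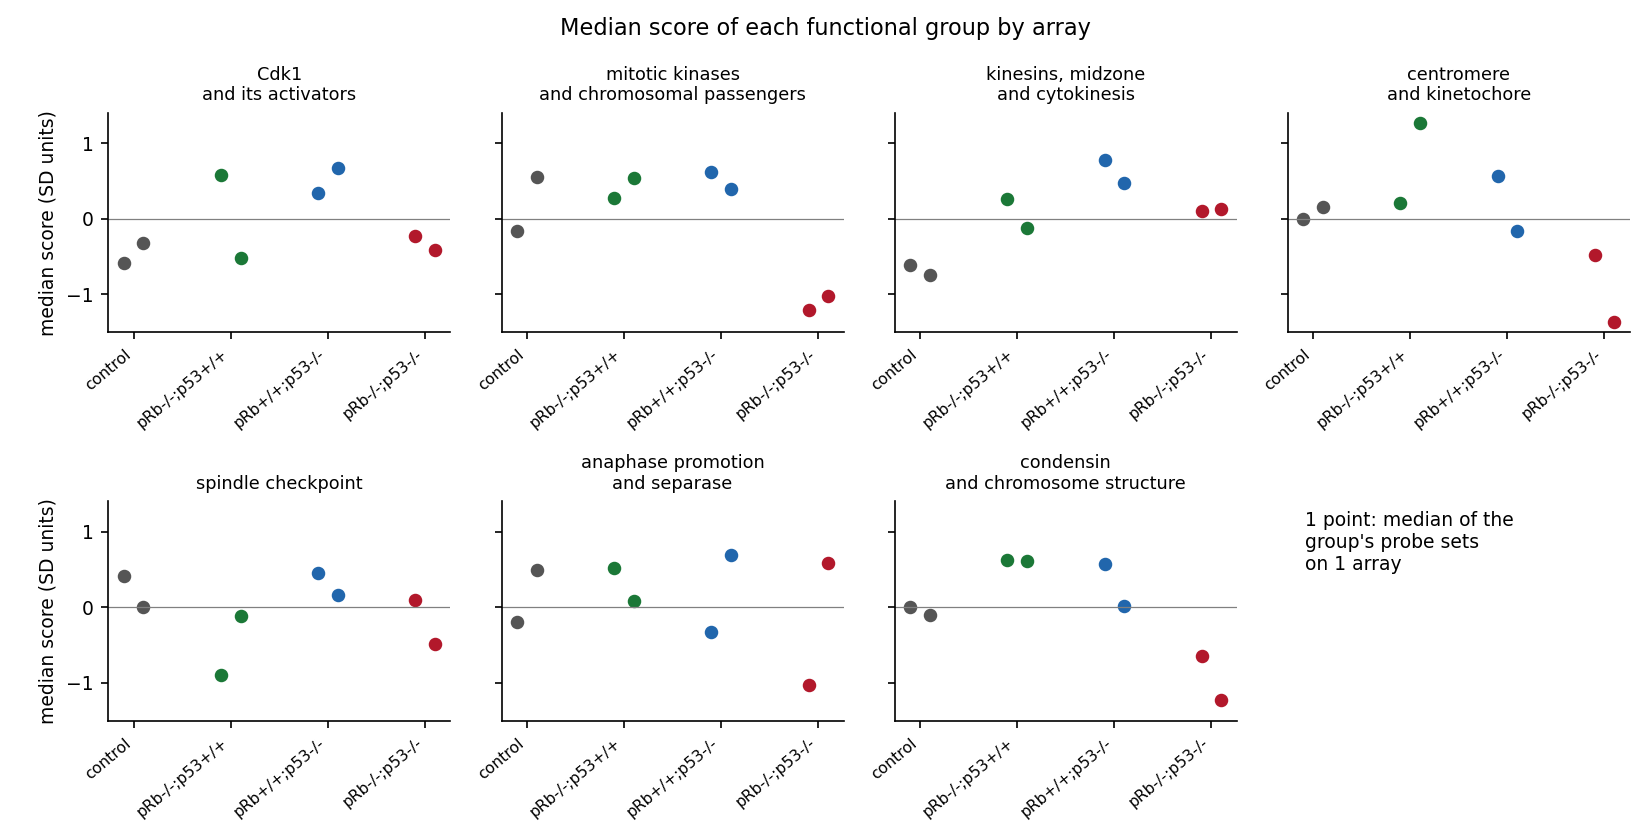
Median score in SD units (y axis) of the probe sets of each of the 7 functional groups on each array (points), by genotype (x axis). The mitotic kinase and passenger group sits at −1.21 and −1.02 with both losses, below its other 6 arrays, whereas the kinesin, midzone and cytokinesis group is lowest in control, at −0.61 and −0.74.

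Kinesins, midzone and cytokinesis genes, 27 probe sets of all 12 listed genes, had their lowest medians in control. Their array medians were −0.61 and −0.74 in control, 0.26 and −0.12 with pRb loss, 0.78 and 0.48 with p53 loss and 0.11 and 0.13 with both. Against control, 23 of 27 were positive with p53 loss (85.2%, against 45.6% of all probe sets) and 21 of 27 with both losses (77.8%, against 49.8%). Kif20a, which carries passenger proteins to the midzone, scored −1.33 and −1.19 in control, −0.39 and −0.33 with pRb loss, 1.56 and 0.84 with p53 loss and 0.30 and 0.56 with both. The 4 genotypes did not overlap for this gene, in the order control, pRb loss, both losses, p53 loss. Neighbours in that order differed by 0.90 ± 0.28 (pRb loss against control, adjusted p = 0.42), 0.79 ± 0.28 (both losses against pRb loss, adjusted p = 0.26) and, for both losses against p53 loss, −0.77.

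Racgap1, which organizes the midzone for cytokinesis, scored −0.93 and −1.15 in control, −0.36 and −0.63 with pRb loss, 1.19 and 1.61 with p53 loss and 0.49 and −0.23 with both by its first probe set. Its second also had low controls (−1.83 and −1.06) but put 1 pRb loss array highest, at 1.21. Kif11, the bipolar motor that separates spindle poles, scored −1.32 and −1.73 in control, 0.63 and −0.04 with pRb loss, 0.98 and 0.73 with p53 loss and 0.20 and 0.56 with both. All mutant arrays lay above control by that probe set, and the interaction was −2.30, −1.96 and −2.10 over its 3 probe sets. The microtubule-depolymerizing kinesin Kif2c had differences from control of 0.08 to 2.38 with p53 loss over its 4 probe sets, all with a negative interaction.

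The hyaluronan receptor and spindle protein Hmmr scored above control with both losses: 3 of its 4 probe sets differed by 1.73 to 2.02 there, 1 of them at an unadjusted p under 0.05, and the other by 0.13. Nusap1, a spindle-binding protein, differed from control with p53 loss by 2.16 ± 0.70 (adjusted p = 0.31) by 1 probe set and by 0.39 by the other. Kif22, a chromosome-arm kinesin, was lowest with both losses by 1 probe set (−1.07 and −1.93) that may match several transcripts. Prc1 and Kif23, midzone proteins, and Anln, Ect2 and Kif4 had no unadjusted p under 0.05 in any comparison. Their interactions ran from −2.07 to 1.30.

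Centromere and kinetochore genes, 8 probe sets of 6 genes, had a median interaction of −0.86, negative in 7 of 8 (87.5%, against 50.9% of all probe sets). Cenpa, the histone variant that marks centromeres, scored −0.28 and −0.01 in control, 1.35 and 1.35 with pRb loss, 0.11 and −0.16 with p53 loss and −0.71 and −1.65 with both. It was highest in both pRb loss arrays and lowest in both arrays with both losses, a difference of −2.53 ± 0.36 (adjusted p = 0.099). Ndc80, which couples kinetochores to microtubules, scored 0.05 and 0.32 in control, 0.65 and 1.19 with pRb loss, 0.54 and 0.05 with p53 loss and −0.75 and −2.05 with both. It followed the same order at the extremes, with an adjusted p of 0.17 for both losses against pRb loss. Its partner Nuf2 differed from control by −1.92 with both losses and by −1.26 with pRb loss, neither at an unadjusted p under 0.05, and Spc25 split between its probe sets, at 1.77 and −0.07 for the interaction. The motor Cenpe and the large coiled-coil protein Cenpf had no unadjusted p under 0.05 in any comparison.

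Spindle checkpoint genes had the smallest median interaction of the 7 groups, at −0.41. It was negative in 6 of 9 probe sets (66.7%, against 50.9% of all). At an unadjusted p under 0.05, 0 were lower (against 5.98% of all) and 0 higher (against 4.47%). Bub1b, a subunit of the mitotic checkpoint complex, scored 0.66 and 1.61 in control, −1.31 and −0.62 with pRb loss, −0.09 and 1.03 with p53 loss and −0.65 and −0.63 with both. Arrays lacking pRb were low whether or not p53 was present, and the interaction was 0.99. Ttk, the kinase that starts checkpoint signalling, scored −0.63 and −0.09 in control, −0.89 and −1.14 with pRb loss, 1.93 and 0.17 with p53 loss and 0.83 and −0.18 with both. It was lowest with pRb loss. Mad2l1, which inhibits Cdc20, had an interaction of −2.77 (adjusted p = 0.54), and its arrays with both losses lay far apart, at −2.03 and 0.12. Probe sets of Bub1 (2) and Bub3 (4) disagreed with each other in sign.

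The genes of anaphase promotion, 7 probe sets of Cdc20, Ube2c and Pttg1, had array medians with both losses of −1.03 and 0.59, so the arrays of that genotype did not match. Cdc20, which activates the anaphase-promoting complex, scored −1.50 and −0.77 in control, 0.48 and 0.09 with pRb loss, 0.43 and 1.21 with p53 loss and −1.03 and 1.09 with both. By another probe set, of a kind that may cross-hybridize, it had its lowest mean with both losses (−1.63 and −0.76), and 1 p53 loss array lay between them. Ube2c, the ubiquitin-conjugating enzyme of that complex, scored −0.86 and 0.50 in control, 1.25 and 0.73 with pRb loss, −0.88 and 1.16 with p53 loss and −0.91 and −0.99 with both. The arrays with both losses were lowest, though control array 1 and p53 loss array 1 lay close to them. Pttg1 scored −0.20 and −0.30 in control, −1.25 and −1.54 with pRb loss, 0.86 and 0.70 with p53 loss and 0.52 and 1.20 with both by a probe set that may match several transcripts. It was the 1 member probe set with a positive interaction at an unadjusted p under 0.05 (1.23 ± 0.38, adjusted p = 0.43), and its other probe sets were at −0.39 and −0.51.

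Condensin and chromosome structure genes were uniform in sign. All 10 probe sets of the 6 genes had a negative interaction (against 50.9% of all probe sets), with a median of −2.02. Among the 10, 5 were lower than the sum at an unadjusted p under 0.05 (against 5.98% of all). Compared with pRb loss alone, all 10 were lower with both losses (against 53.5% of all probe sets). Compared with p53 loss alone, 9 of 10 were lower (against 49.0% of all). Mki67, the Ki-67 protein that coats mitotic chromosomes and marks cycling cells, scored 0.29 and 0.98 in control, 0.85 and 0.83 with pRb loss, 0.10 and −0.04 with p53 loss and −1.46 and −1.55 with both. Both arrays with both losses stood more than 1 unit below every other array. Ncapd2, a regulatory subunit of condensin I, scored −0.52 and −0.62 in control, −0.26 and −0.08 with pRb loss, 1.78 and 1.31 with p53 loss and −0.62 and −0.99 with both. It was high with p53 loss alone, and skin with both losses differed from control by −0.23.

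Ncaph, the kleisin of condensin I, scored −0.17 and −0.44 in control, 1.28 and 1.50 with pRb loss, 0.48 and −0.45 with p53 loss and −1.27 and −0.92 with both by a probe set of a kind that may cross-hybridize. It was high with pRb loss, where Ncapd2 was high with p53 loss, and its other probe set had an interaction of −0.81. Smc4 had an interaction of −1.93, −3.33 and −2.11 over its 3 probe sets, and its partner Smc2 of −2.15. Top2a, the topoisomerase that untangles sister chromosomes, was lowest with both losses by 1 probe set (−0.95 and −2.03; −2.25 ± 0.47 against control, adjusted p = 0.13) and differed by 0.45 from control by the other.

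**Figure D4:**
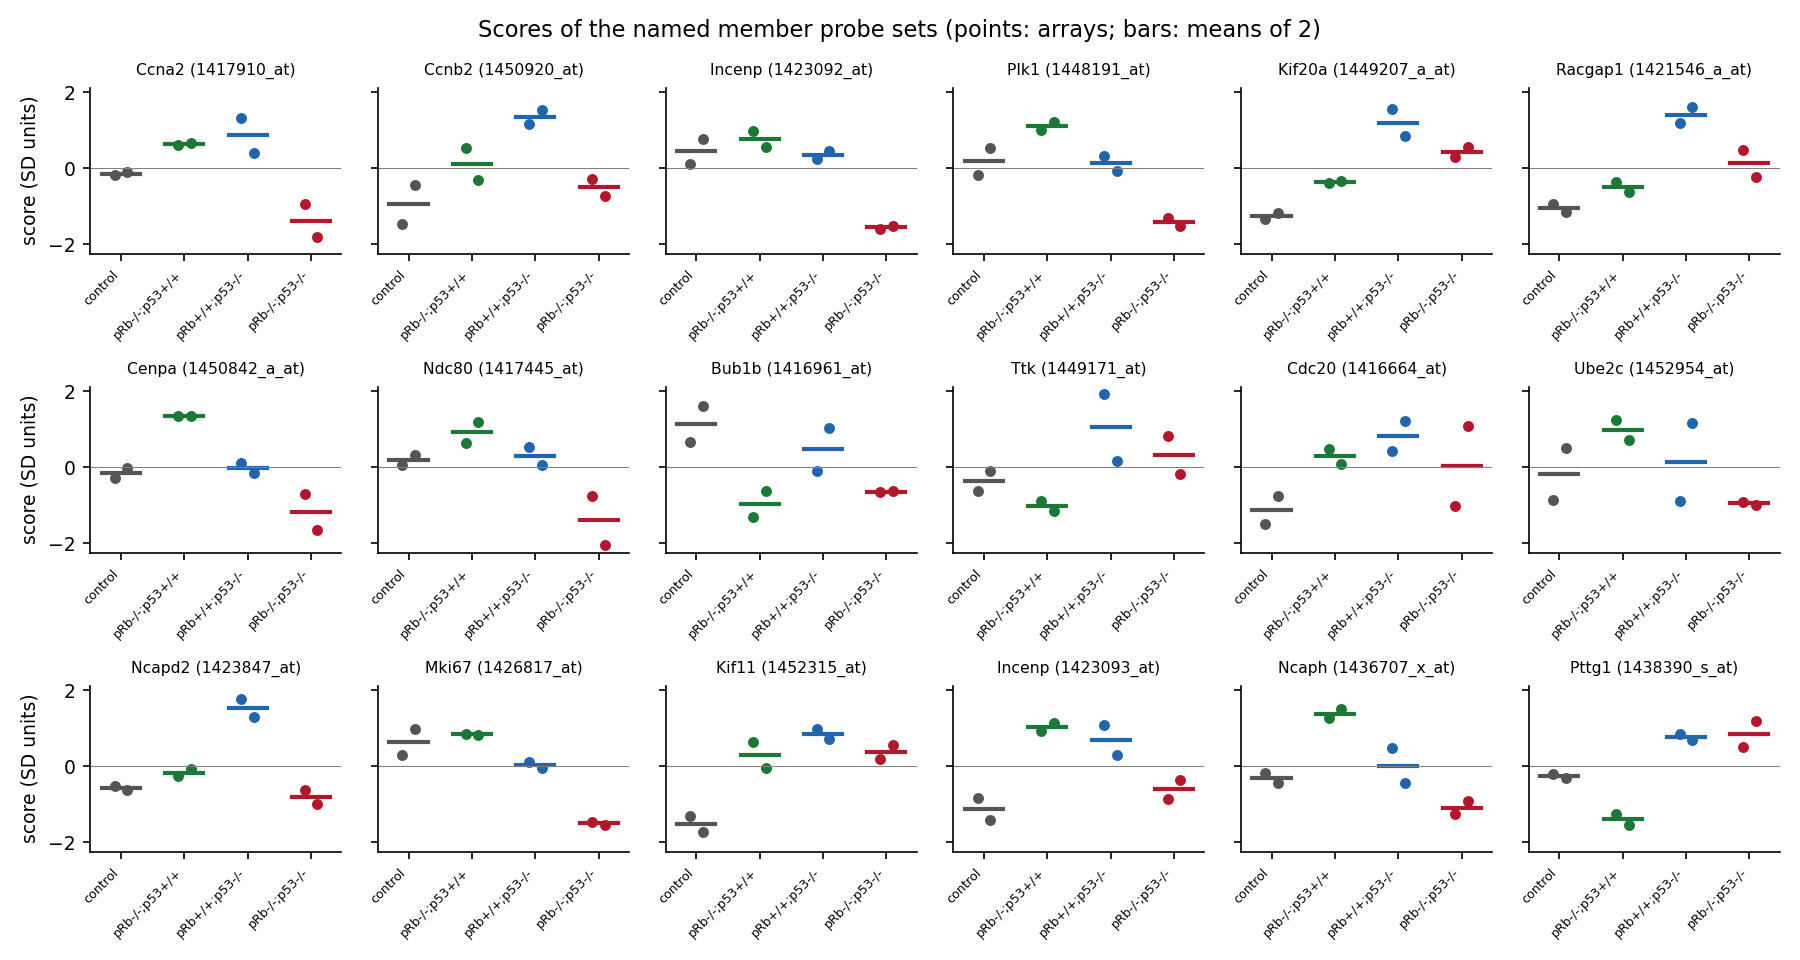
Score in SD units (y axis) of the 18 named member probe sets in the 4 genotypes (x axis), with 1 point per array and a bar at the mean of 2. Mki67 sits at −1.46 and −1.55 with both losses, and Kif20a steps up from control through pRb loss and both losses to p53 loss.

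Probe sets of the same gene agreed only in part. Over the 23 genes with several, the median of the within-gene correlations across the 8 arrays had a median of 0.15, and 11 genes held at least 1 negative pair. This is a description of probe sets that share their arrays. In 15 of the 23 genes all probe sets gave the interaction the same sign. With 1 probe set per gene, the median interaction of the 47 genes was −1.67, where that of all 12393 genes was 0.02. Of the 47, 13 were lower at an unadjusted p under 0.05. Over all 22626 probe sets that share was 5.98%, and over 1 probe set per gene it is not given here.

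Other genes of mitosis, from a list of 81 of which 58 were measured by 103 probe sets, leaned the same way. Against control, their median difference was 0.33 with pRb loss, 0.93 with p53 loss and 0.09 with both. The interaction was negative in 81 of 103 (78.6%, against 50.9% of all probe sets), with a median of −1.08. At an unadjusted p under 0.05, 15 were lower than the sum (14.6%, against 5.98% of all) and 1 higher (0.971%, against 4.47%). With p53 loss 24 were higher (23.3%, against 7.32%) and 1 lower (0.971%, against 7.24%). With both losses against p53 loss 19 were lower (18.4%, against 5.92%) and 1 higher (0.971%, against 5.98%). One probe set passed the adjusted test. Mis12, a kinetochore subunit, scored 0.55 and 0.40 in control, 1.24 and 1.02 with pRb loss, −0.19 and −0.27 with p53 loss and −1.42 and −1.34 with both, and with both losses it differed from control by −1.86 ± 0.10 (adjusted p = 0.028) and from pRb loss by −2.52 ± 0.10 (adjusted p = 0.028). Both calls were lost under the moderated test (adjusted p = 0.19 and 0.21), quantile normalization (0.076 and 0.099), the replicate block (0.097 and 0.12), with only the groups compared (0.34 and 0.32) and without any 1 of the 8 arrays (0.084 to 0.18). The lamin Lmnb1 (2.59 ± 0.22, adjusted p = 0.081) led the positive differences of the list with p53 loss. Wee1, the kinase that holds Cdk1 inactive, was high with pRb loss by 1 probe set, at 1.69 and 1.20, and its interaction was −3.05 ± 0.47 (adjusted p = 0.26).

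S phase genes showed a smaller interaction. It had a median of −0.95 over 42 probe sets of the helicase and origin licensing genes, negative in 29 (69.0%, against 50.9% of all probe sets). Over 46 probe sets of replication fork and nucleotide synthesis genes the median was −0.62, negative in 29 (63.0%). At an unadjusted p under 0.05, 2 (4.76%) and 5 (10.9%) of them were lower than the sum, against 5.98% of all probe sets, and 2 (4.76%) and 0 were higher, against 4.47% of all. Among the members 22 of 85 were lower and 1 was higher. With both losses against p53 loss their medians were −0.24 and −0.20, where the members' was −0.87. The difference between these lists and the mitotic genes was not tested.

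Markers of other cells differed in the same arrays. All 14 probe sets of the hair follicle matrix and shaft list were lower with both losses than in control at an unadjusted p under 0.05 (against 9.93% of all). Their array medians were 0.93 and 0.96 in control, 0.67 and 0.63 with pRb loss, −0.24 and −0.17 with p53 loss and −1.52 and −1.25 with both. The interaction of this list was negative in 13 of 14 (92.9%, against 50.9% of all), with a median of −0.94 and 6 lower at an unadjusted p under 0.05 (42.9%, against 5.98% of all). With p53 loss alone 12 of the 14 were lower than control at an unadjusted p under 0.05 (85.7%, against 7.24% of all). There, 14 of 85 mitotic probe sets were higher (16.5%, against 7.32% of all). Basal keratinocyte probe sets had a median difference of −0.03 between both losses and control. Against the single losses their medians were negative, as the members' were. Against pRb loss it was −0.86, with 17 of 21 negative (81.0%, against 53.5% of all). Against p53 loss it was −0.47, with 13 of 21 negative (61.9%, against 49.0%). Their interaction was negative in 16 of 21 (76.2%, against 50.9% of all), with a median of −0.82 and 4 lower at an unadjusted p under 0.05 (19.0%, against 5.98% of all). Macrophage probe sets had medians of 1.14 and 0.68 with both losses and −0.44 to −0.17 in the other 6 arrays. Against control 11 of 13 had a positive difference with both losses (84.6%, against 49.8% of all), 5 of them at an unadjusted p under 0.05 (38.5%, against 8.72% of all). Melanocyte probe sets had medians of −1.77 and −1.19 with both losses and 0.28 to 0.70 elsewhere. All 10 had a negative interaction (against 50.9% of all), with a median of −2.08 and 6 lower at an unadjusted p under 0.05 (60.0%, against 5.98% of all). A negative interaction was thus not particular to the mitotic genes. Skeletal muscle probe sets had a median interaction of −1.80, with 3 of 15 lower at an unadjusted p under 0.05 (20.0%, against 5.98% of all). Scores show no level, so it cannot be said whether any marker is absent, and the part of cell composition in the mitotic scores was not tested.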

How the data were processed

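The authors' deposited values are standardized scores for 22690 probe sets on 8 arrays. RMA is the only tool named, per the submitters' processing notes, and its version, the standardization step and whether logarithms were taken are not given in the sources used here. Tested on the file, all 22690 probe sets had mean 0 and SD 1 within 1e-06. The 64 control probe sets were left out, leaving 22626. Symbols came from the platform annotation (20380 probe sets tested had 1 symbol; 20351 matched RefSeq by Entrez number and 0 symbols changed).

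All 8 arrays entered 1 linear model (limma 3.58.1, R 4.3.3) that gave each genotype its own mean and left 4 residual degrees of freedom. The ordinary statistic was used because moderation ties the variances of standardized rows together. Tests were two-sided, with Benjamini-Hochberg adjustment over all probe sets, called at an adjusted p under 0.05. The fit was also run on simulated scores with large shifts in the genotype with both losses, which says nothing about small shifts. An exact permutation test of 2 arrays against 2 cannot go below 0.33. The members, lists and this test were chosen with earlier results of these data known. Values in every array are given for the 2 genes of each functional group with the largest F statistic over the 4 genotypes and for the 3 smallest p in each of the 6 comparisons. A gene is represented first by its _at probe set, then _a_at, _s_at (may match several transcripts) and _x_at (may cross-hybridize). Replicate numbers were not taken to pair the arrays. Alternatives were the moderated test, quantile normalization, array medians set to 0, a replicate block, 1 probe set per gene, only the groups compared and leaving out each array. Lists of other mitotic, S phase, DREAM and MuvB genes and of markers of 12 cell types were summarised the same way. Tables and plots used Python 3.11.15, pandas 2.3.3 and matplotlib 3.10.9.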

Additional observations from a re-analysis of the deposited data

Results flagged for a closer look

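The 64 control probe sets, which lie outside the comparisons, had higher scores in each mutant genotype than in control, with a median difference of 0.87 with pRb loss, 0.87 with p53 loss and 0.71 with both losses. The members' medians were 0.52, 0.39 and 0.07 in the same order. Of the control probe sets, 31, 30 and 30 had both mutant arrays above both control arrays, and 9, 7 and 8 had them below. Between both losses and p53 loss alone, where members had a median of −0.87, the control probe sets had a median of −0.32, and between both losses and pRb loss alone it was 0.07, where members had −0.84. Their interaction had a median of −0.84, where that of the members was −1.45, and its part in the members' interaction was not tested.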

How the results depend on the processing

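In each of the 6 comparisons, 0 members were called under every alternative run, and the 18 probe sets plotted by genotype kept the sign of the interaction under each, except Ttk (−0.07), at 0.21, 0.06, 0.82 and 0.44 without control array 1, pRb loss array 1, p53 loss array 1 and array 2 of both losses; its values with 1 array left out ran from −0.95 to 0.82. The 3 smallest p in each comparison kept their sign. Other members were not followed one by one. Scaling shifted medians: quantile normalization gave 0.57 for p53 loss against control and −0.55 for both losses against pRb loss, and array medians set to 0 gave −0.67 for the latter. The median of all probe sets moved from −0.16 to −0.07 and from −0.15 to −0.02 in these comparisons under quantile normalization. Numbers of members at an unadjusted p under 0.05 moved as follows. The higher interactions became 0 under the moderated test and the replicate block, and the replicate block gave 12 lower for both losses against p53 loss. The correlations of same-numbered deviations between genotypes ran from −0.163 to 0.197, so the numbers were not treated as pairs, and the block, like the moderated test and the fit of only the groups compared, left 0 adjusted calls on the whole array in every comparison it gave, where 27, 192, 92 and 8 had been called for p53 loss, both losses against control, against pRb loss and against p53 loss. With 1 lead probe set per gene, pRb loss had 4 higher and 1 lower, p53 loss 7 higher, both losses against control 2 higher, both against pRb loss 1 higher and 10 lower, and the interaction 0 higher and 13 lower; only 47 probe sets are counted there. Its medians were −1.08 for both losses against p53 loss and −1.67 for the interaction. With only the groups compared, which leaves fewer arrays, pRb loss had 1 lower, p53 loss 1 lower, both losses against control 3 higher and 4 lower, and both against p53 loss 13 lower; the interaction needs all 4 groups and has no such value. With 1 array left out, the counts higher and lower were 5 to 8 and 1 to 3 for pRb loss, 8 to 18 and 0 to 1 for p53 loss, 5 to 7 and 6 to 13 for both losses, 1 to 4 and 9 to 16 against pRb loss, 0 and 8 to 19 against p53 loss, and 0 to 1 and 14 to 21 for the interaction. The medians ran from 0.49 to 0.68, 0.39 to 0.65, −0.19 to 0.09, −0.94 to −0.62, −1.13 to −0.70 and −1.71 to −1.28 in the same order. Where no construction is named, the cause was not tested. The number of arrays limits the precision.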

Other observations

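Subunits of the DREAM and MuvB complexes, which repress or activate mitotic promoters, were measured by 13 probe sets of 8 genes of 10 listed. Their median interaction was −0.64, with 2 lower (15.4%, against 5.98% of all probe sets) and 0 higher (against 4.47%) at an unadjusted p under 0.05. Rbbp4, a histone-binding subunit, scored −1.42 and −1.67 in control, 0.86 and 0.75 with pRb loss, 0.69 and 0.63 with p53 loss and 0.00 and 0.15 with both by 1 probe set. By it the gene differed from control by 2.20 ± 0.11 with p53 loss (adjusted p = 0.040) and by 1.62 ± 0.11 with both losses (adjusted p = 0.033), while another of its probe sets differed by −1.64 and −2.50 in these comparisons, so its direction is not settled. Both calls were also lost under the moderated test (adjusted p = 0.32 and 0.23), quantile normalization (0.074 and 0.072), the replicate block (0.15 and 0.11), with only the groups compared (0.31 and 0.34) and without any 1 of the 8 arrays (0.10 to 0.32). With array medians set to 0 the first was lost (0.068) and the second kept (0.042). Mybl2, the B-Myb activator of mitotic genes, scored 1.05 and 1.20 in control, 0.50 and 0.83 with pRb loss, −0.79 and −0.81 with p53 loss and −1.36 and −0.63 with both. Both genotypes without p53 lay below those with it by that probe set, with adjusted p of 0.13 for p53 loss and 0.078 for both losses, and another probe set did not separate them, at 0.62 and −1.13 with both losses. Tfdp1, a partner of E2F factors, differed by −2.54 ± 0.33 between both losses and pRb loss (adjusted p = 0.088).

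Among marker lists not described above, the median difference between both losses and control was 0.88 for spinous and granular keratinocytes, 1.00 for adipocytes, 1.14 for dermal fibroblasts, 1.66 for endothelium, 0.50 for lymphocytes, 1.06 for mast cells and −1.07 for erythroid cells. Adipocyte probe sets went opposite ways with the single losses, at 0.81 with pRb loss and −1.36 with p53 loss. Their interaction was 1.43, with 6 of 10 above the sum at an unadjusted p under 0.05 (60.0%, against 4.47% of all probe sets).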
